A study of Mus musculus with 2 samples.

Results

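The 93 genes described here encode the nuclear part of the mitochondrial oxidative phosphorylation (OXPHOS) machinery. They were chosen by symbol from the 27998 genes that the count matrices list: every symbol that starts with Nduf, Uqcr, Atp5 or Cox followed by a digit from 4 to 8, together with Sdha, Sdhb, Sdhc, Sdhd and Cycs, with symbols containing -ps left out. By prefix, 38 belong to complex I, 7 are Ndufaf assembly factors of complex I, 4 belong to complex II, 8 to complex III, 18 to complex IV and 17 to complex V, and 1 is cytochrome c. The grouping follows the prefix, so Ndufa4, which is now regarded as a complex IV subunit, was counted with complex I.

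Complexes I and II pass electrons from NADH and succinate to ubiquinone, complex III passes them on to cytochrome c, and complex IV hands them to oxygen. The proton gradient built on the way drives complex V, the ATP synthase. Most subunits are encoded in the nucleus and imported, while a small core of each complex except complex II is encoded in mitochondrial DNA, and T cells are known to raise mitochondrial content when they leave the naive state and divide.

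The study set 1 droplet-based single-cell RNA library from WT mice beside 1 from KO mice, both made from immune cells sorted out of B16Ova tumors, grafts of a mouse melanoma line that carries ovalbumin. Mice of both groups were female and had floxed Tcf7 alleles (Tcf7 FL/FL), Tcf7 being the gene of the transcription factor TCF1. WT mice lacked E8i-cre and KO mice carried it, a Cre driven by a Cd8a enhancer that is active in mature CD8 T cells. Tumors were taken on day 13, 3 per group; the sources used here do not give the age of the mice. From each tumor 2000 cells of each of 4 sorted categories (CD8 T cells, CD4 T cells, a CD11c+ MHCII+ dendritic cell gate, and remaining CD45+ cells) were mixed before 7000 cells were loaded per channel. The barcodes carry no tumor of origin, so each group is 1 sample. No test between WT and KO was possible, intervals given below are 95% intervals that cover counting error only, and genotype, mouse and library cannot be told apart. The sort sets how many cells of each kind were loaded, so class sizes were not compared.

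After filtering, 988 of 1120 WT barcodes and 1086 of 1219 KO barcodes were kept, with a median of 6179 and 8243 unique molecular identifiers (UMIs) per cell. Cells were put in classes by the number of marker genes detected, and 812 WT and 894 KO cells fell in a class. Markers of a class's own list were detected in the CD8, cDC1 (conventional type 1 dendritic cell) and mature dendritic cell classes of both libraries. That follows from the gate and is no separate check of what the cells are. Of the fixed marker lists, 4 markers were not among the genes of the count matrices. Only 1 barcode occurred in both libraries. In CD8 T cells Tcf7 was at 160 UMIs per 1000000 UMIs (CPM) in WT and at 53.9 CPM in KO, with a KO over WT ratio of 0.337 (interval 0.262 to 0.431). In CD4 T cells it was at 135 and 89.6 CPM, a ratio of 0.663 (0.508 to 0.865). Which exons were deleted is not stated, so reads outside them would not show the deletion and the levels check the labels only in part. The CD8 value also pools cell states that differ in Tcf7 level and in their share of each library. The values by state are given below.

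The 93 genes took 2.51% of all kept UMIs in WT and 2.69% in KO. Of the 93, 3 (Cox7b2, Cox8b and Cox8c) had no UMI in any kept cell. Of the 5 classes that reached 50 cells in each library, the list was highest in cDC1s and CD8 T cells and lowest in mature dendritic cells. cDC1s held 2.62% of their UMIs in the list in WT and 2.81% in KO, and CD8 T cells held 2.55% and 2.92%. CD4 T cells held 2.41% and 2.54%, and T cells with neither co-receptor UMI held 2.23% and 2.27%. Mature dendritic cells, which carry Fscn1 and Ccl22, held 2.01% and 2.02%. The interquartile range over single cells overlapped between classes: it ran from 2.26% to 2.92% in WT cDC1s, from 1.72% to 2.61% in WT CD8 T cells and from 1.59% to 2.33% in WT mature dendritic cells.

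The order of the 2 highest classes depended on the denominator. Cytosolic ribosomal protein genes took 32.8% of UMIs in WT CD8 T cells, 23.3% in WT cDC1s and 20.6% in WT mature dendritic cells. With ribosomal protein and mitochondrially encoded UMIs out of the denominator, WT CD8 T cells were at 3.94%, WT cDC1s at 3.49% and WT mature dendritic cells at 2.58%. The KO library gave 4.35%, 3.71% and 2.54%, so mature dendritic cells stayed lowest of the 5 on both scales in both libraries.

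Classes with fewer than 50 cells in a library are given by value. Macrophages (32 WT and 41 KO cells) were at 2.86% and 2.70%, cDC2s (29 and 45) at 2.45% and 2.47%, and monocytes (19 and 67) at 2.32% and 2.35%. Cells with melanoma markers (12 and 9), which the CD45 sort should have removed, were at 5.91% and 5.04%, above every immune class.

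**Figure D1:**
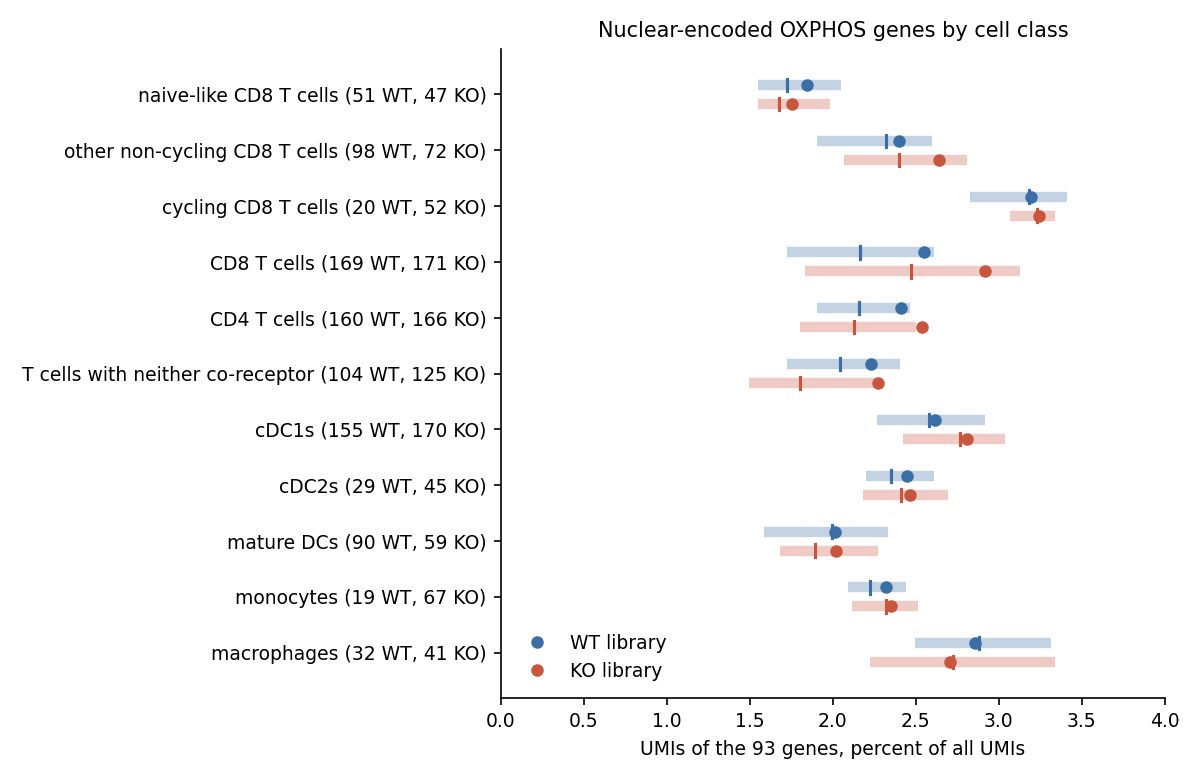
Share of each class's UMIs that came from the 93 genes, in percent, for WT (blue) and KO (red). Points are the summed class values, bars the interquartile range over single cells and ticks their medians; cycling CD8 T cells sit at 3.19% and 3.24% and naive-like CD8 T cells at 1.85% and 1.75%.

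Within CD8 T cells the list differed more between cell states than between the libraries. Cells were called cycling with at least 3 of 12 proliferation markers, and naive-like, among the others, with at least 3 of 6 markers of naive T cells, such as Ccr7 and Lef1. Naive-like cells held 1.85% of UMIs in the list in WT (51 cells) and 1.75% in KO (47 cells). The other non-cycling cells held 2.40% (98 cells) and 2.64% (72 cells), and cycling cells 3.19% (20 cells) and 3.24% (52 cells). The cycling over naive-like ratio was 1.73 (1.67 to 1.79) in WT and 1.85 (1.79 to 1.92) in KO. Depth and ribosomal protein share moved with it: median UMIs per cell were 4695 and 4146 in naive-like cells against 20465 and 20240 in cycling cells, and ribosomal protein genes took 41.6% and 44.8% against 29.1% and 29.6%. With ribosomal protein and mitochondrially encoded UMIs out of the denominator the ratios were 1.40 in WT and 1.41 in KO. The part of depth in the difference was not tested. Few CD8 T cells lay at the cycling limit or 1 marker below it (6 in WT and 12 in KO), while 47 and 27 lay there for the naive-like limit.

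Most single genes shared this difference. A gene was measured in a comparison when it reached 50 CPM on either side, and called when its CPM differed at least 1.5-fold with an interval that excluded 1. In WT, 51 of 74 measured OXPHOS genes were higher in cycling than in naive-like cells and 1 was lower, where 33.0% of the 3019 genes measured were higher and 13.9% lower. In KO, 53 of 75 were higher and 2 lower, against 40.5% and 16.2% of 2952 genes. The calls overlapped in 46 genes that were higher in both libraries. Other non-cycling over naive-like cells gave 15 of 74 higher and none lower in WT, where 16.3% of measured genes were higher and 4.33% lower, and 47 of 75 higher and 2 lower in KO, where the shares were 30.5% and 8.10%. For cycling over naive-like cells the median log2 ratio of the list was 0.91 in WT and 1.01 in KO, beside 0.44 and 0.61 over all measured genes.

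Genes of every complex were called higher. Of complex I, which holds the NADH-oxidising arm, 22 of 35 measured subunits were higher in WT and 23 of 36 in KO. Ndufs6, an accessory subunit of the peripheral arm, stood at 54.6 CPM in naive-like and 179 CPM in cycling WT cells, and at 58.0 and 200 CPM in KO. Ndufb8, a membrane-arm subunit, stood at 101 and 343 CPM in WT and at 135 and 352 CPM in KO. Both genes, named after their values were seen, were called higher in each library. In complex II, Sdhb, the iron-sulfur subunit of succinate dehydrogenase, stood at 101 and 323 CPM in WT and at 91.8 and 314 CPM in KO, and was called higher in both. Sdha, the flavoprotein of the same enzyme, was not called, at 78.1 and 78.4 CPM in WT and 101 and 77.3 CPM in KO.

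In complex III, 5 of 8 subunits were higher in each library, such as Uqcr10, a small accessory subunit, at 160 and 426 CPM in WT and 164 and 456 CPM in KO. Complex IV had 9 of 11 measured subunits higher in WT and 10 of 11 in KO, and complex V 12 of 15 in both. Atp5g3, which encodes an identical copy of the membrane-ring subunit c after its import signal is removed, was at 445 and 1229 CPM in WT and at 358 and 1314 CPM in KO. Cycs, the mobile electron carrier that also triggers caspase activation when released, was at 172 and 453 CPM in WT and at 111 and 520 CPM in KO. Its cycling over naive-like ratio was 2.64 (1.89 to 3.75) in WT and 4.68 (3.09 to 7.44) in KO.

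**Figure D2:**
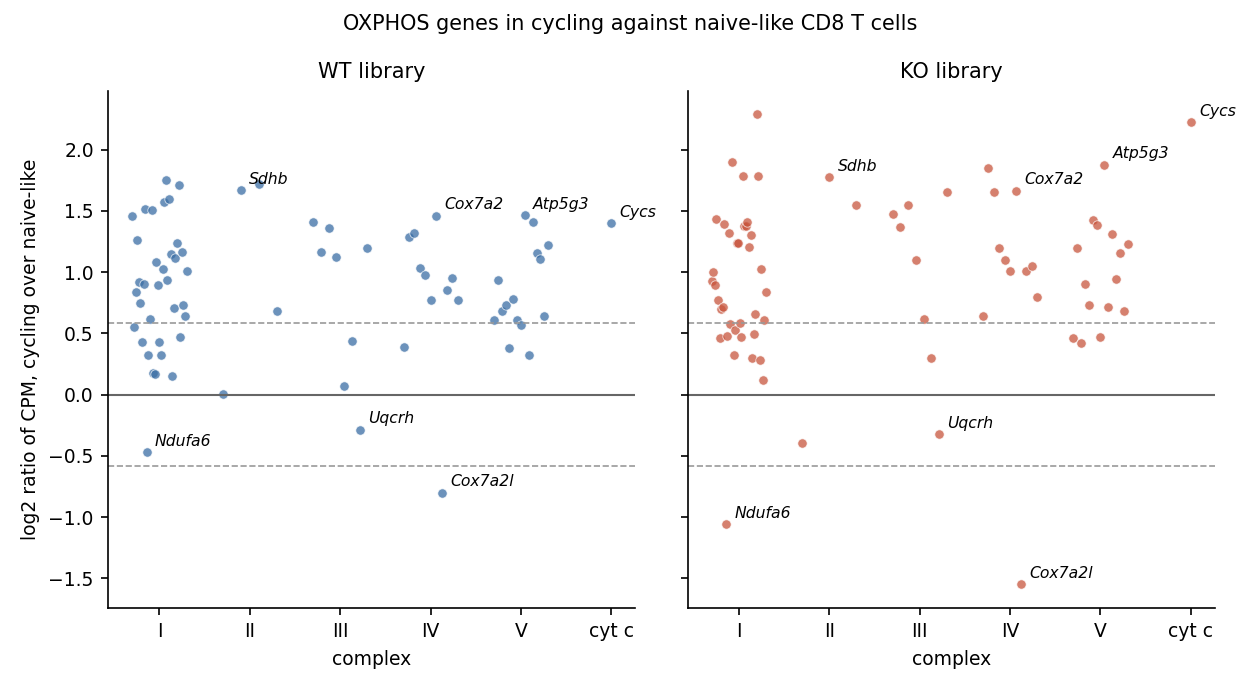
Log2 ratio of CPM in cycling over naive-like CD8 T cells for each OXPHOS gene measured in the library named above the panel, by complex (Ndufaf genes left out). Dashed lines mark 1.5-fold; Cycs lies near the top of both panels, and Cox7a2l, Ndufa6 and Uqcrh lie below 0 in both.

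Cox7a2l, Ndufa6 and Uqcrh were the measured genes below 1 in both libraries, and Sdha lay below 1 in KO alone. The first, a COX7A relative also known as SCAF1 that bridges complexes III and IV in the supercomplex, was the single member lower in cycling cells in both. It stood at 464 CPM in naive-like and 267 CPM in cycling WT cells, and at 541 and 185 CPM in KO, with ratios of 0.57 (0.44 to 0.75) and 0.34 (0.27 to 0.43). Ndufa6, a complex I subunit that holds the acyl carrier protein, was at 386 and 279 CPM in WT, a ratio of 0.72 that missed the fold limit, and at 565 and 272 CPM in KO, a ratio of 0.48 (0.39 to 0.60). Uqcrh, the acidic hinge protein of complex III, was at 890 and 730 CPM in WT and at 763 and 610 CPM in KO, and was called in neither.

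The shift of Cox7a2l against Cox7a2, the ubiquitous COX7A subunit of complex IV, recurred in other cells. Cox7a2l made up 68.8% (61.3 to 75.6) of the UMIs of Cox7a1, Cox7a2 and Cox7a2l in naive-like WT CD8 T cells and 73.7% (65.9 to 80.5) in KO. In cycling CD8 T cells its share was 31.5% (26.6 to 36.7) in WT and 23.0% (20.3 to 25.9) in KO. The intervals of the naive-like and cycling cells did not overlap in either library. Naive-like CD4 T cells showed 66.7% and 62.4%, cycling CD4 T cells 25.8% and 21.2%. In cDC1s the share was 37.9% and 32.8% in non-cycling cells and 25.9% and 23.0% in cycling cells. Cox7a1, the heart and muscle form, took at most 2.19% of the family in any class with at least 20 family UMIs.

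**Figure D3:**
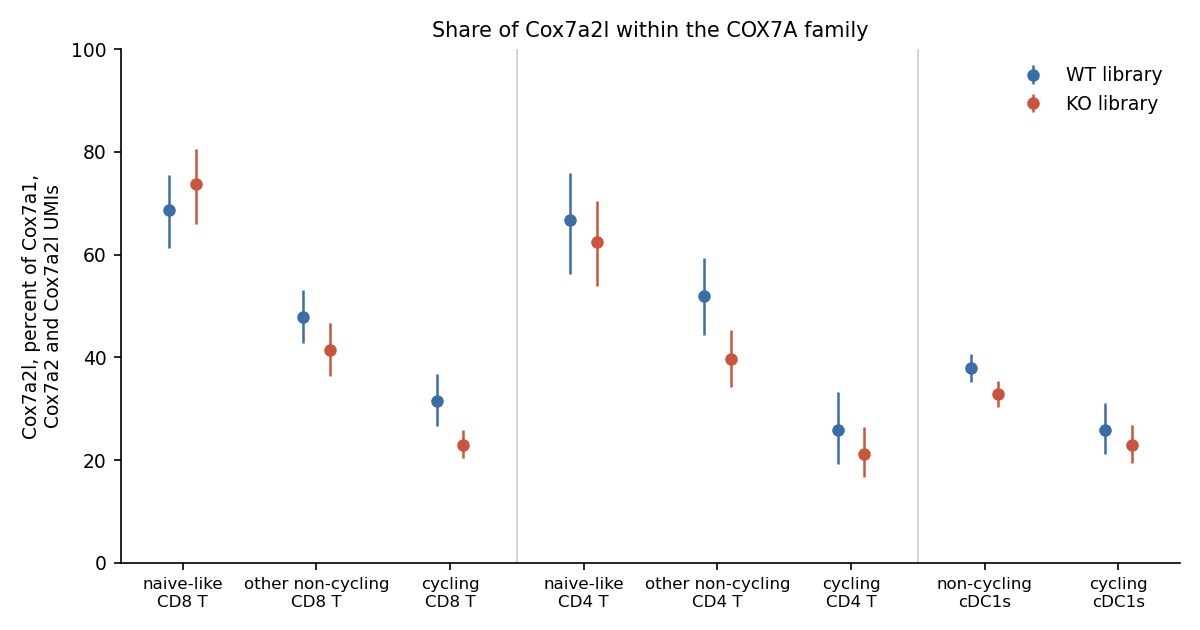
Cox7a2l as a percentage of the UMIs of Cox7a1, Cox7a2 and Cox7a2l by cell state, WT in blue and KO in red, with exact binomial 95% intervals. The share is 68.8% and 73.7% in naive-like CD8 T cells and 31.5% and 23.0% in cycling ones, with the same order in CD4 T cells.

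Promoters of the genes were searched for 3 motifs, and those of a few genes are printed. Nuclear respiratory factor 1 (NRF1) and GA-binding protein (GABPA, an ETS factor) are known activators of OXPHOS genes. RefSeq (GRCm38.p6) gave a window from 250 bases before to 50 after the start for 74 of the 93 genes. The NRF1 motif, GCGCA and GCGC with any 1 base between them, was searched on both strands and occurred in 19 of the 74 genes (25.7%). A gene counted when any of its windows held the motif. It occurred in 5.19% of all 27025 genes with a window of that length and in 13.8% of the 2072 other genes with a window measured in CD8 T cells. The ETS motif CCGGAAG occurred in 17 genes of the list (23.0%), in 9.93% of all genes with a window and in 25.1% of the other measured genes. A YY1 motif, searched in the same way, occurred in 5 genes of the list (6.76%), in 0.995% of all genes with a window and in 2.99% of the other measured genes. The 250 bases upstream of the 3 subunit c genes, of Cycs and of Uqcrh are printed as examples. Capitals mark a motif match, and a match is a description of the letters only. Whether matches go with the differences between cell states was not tested.
Atp5g1, chr11:96075632-96075881, minus strand: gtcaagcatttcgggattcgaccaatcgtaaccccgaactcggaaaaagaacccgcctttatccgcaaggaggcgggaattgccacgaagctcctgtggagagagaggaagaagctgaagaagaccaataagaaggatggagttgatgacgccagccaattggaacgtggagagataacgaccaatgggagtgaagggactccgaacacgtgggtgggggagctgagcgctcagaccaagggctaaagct
Atp5g2, chr15:102671048-102671297, minus strand: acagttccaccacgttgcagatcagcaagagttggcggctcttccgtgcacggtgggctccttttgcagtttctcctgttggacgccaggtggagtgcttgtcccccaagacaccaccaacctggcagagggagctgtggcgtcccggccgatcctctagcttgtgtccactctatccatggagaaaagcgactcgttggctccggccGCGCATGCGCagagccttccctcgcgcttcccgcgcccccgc
Atp5g3, chr2:73911327-73911576, minus strand: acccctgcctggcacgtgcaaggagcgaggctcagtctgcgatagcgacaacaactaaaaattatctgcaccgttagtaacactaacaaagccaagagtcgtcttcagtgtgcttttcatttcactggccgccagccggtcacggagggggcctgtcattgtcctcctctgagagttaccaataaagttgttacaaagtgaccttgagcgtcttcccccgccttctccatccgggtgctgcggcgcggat
Cycs, chr6:50566570-50566819, minus strand: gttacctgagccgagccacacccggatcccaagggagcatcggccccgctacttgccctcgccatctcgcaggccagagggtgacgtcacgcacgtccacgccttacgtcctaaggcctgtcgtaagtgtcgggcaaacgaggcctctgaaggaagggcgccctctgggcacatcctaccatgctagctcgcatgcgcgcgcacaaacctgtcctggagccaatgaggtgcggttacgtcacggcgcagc
Uqcrh, chr4:116075071-116075320, minus strand: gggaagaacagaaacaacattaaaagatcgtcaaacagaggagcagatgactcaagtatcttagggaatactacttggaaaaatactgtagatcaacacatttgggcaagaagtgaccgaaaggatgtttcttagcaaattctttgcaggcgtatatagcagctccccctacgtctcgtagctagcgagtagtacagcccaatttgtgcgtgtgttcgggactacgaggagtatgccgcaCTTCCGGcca

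The stretch above Atp5g2 held 1 NRF1 match, 42 bases before the start, and that of Uqcrh 1 ETS match 10 bases before it, read on the opposite strand. None of the 3 motifs matched the printed 250 bases upstream of Atp5g1, Atp5g3 or Cycs, although Atp5g3 holds the NRF1 motif in the longer window used for the counts, which takes in the 50 bases after the start. The windows of 2 more genes were read and are not printed. Cox7a2l, lower in cycling cells in both libraries, had no match in its 250 bases. Cox6a1 had 3 matches, NRF1 at 162 and 117 bases before the start and ETS at 16 bases before it.

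KO CD8 T cells had slightly higher levels of most OXPHOS genes than WT CD8 T cells, with 1 gene past the fold limit. The summed list had a KO over WT ratio of 1.143 (1.127 to 1.159). Of the 93 genes 74 were measured, and 66 of these had a ratio above 1, where 60.6% of the 2731 genes measured did. 1 was called higher and none lower, where 8.13% of measured genes were called higher and 5.97% lower, so the share of called members lay under the background. At a limit of 25% between the lower and the higher level, 22 members were higher and 2 lower, where the shares over all measured genes were 20.2% and 11.2%. The median log2 ratio was 0.24 over the list and 0.10 over all measured genes.

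The gene called higher was Cycs, at 266 CPM in WT and 404 CPM in KO, a ratio of 1.52 (1.33 to 1.74). By cell state, Cycs was called higher only in other non-cycling cells, at 166 and 258 CPM. In cycling cells it was at 453 and 520 CPM, and in naive-like cells it was lower in KO, neither of them called. The annotation (GENCODE M21) places it at chr6:50562563-50566538 and names 2 Cycs pseudogenes, with which reads could be shared. Next by their interval were Atp5g1, at 296 and 427 CPM (1.44, 1.27 to 1.64), and Ndufab1, the mitochondrial acyl carrier protein, at 147 and 219 CPM (1.497, 1.251 to 1.799), which lay just under the limit. At the other end, Cox7a2l was at 344 CPM in WT and 255 CPM in KO, a ratio of 0.74 (0.65 to 0.85). Uqcrh was at 865 and 675 CPM, a ratio of 0.78 (0.72 to 0.85), and has 2 named pseudogenes. Ndufa6 was at 354 and 320 CPM, with an interval that included 1. The same 3 genes lay below 1 in cycling over naive-like cells.

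By complex, the summed ratio was 1.16 for complex I, 1.17 for complex II, 1.14 for complex IV and 1.15 for complex V, and 1.03 (0.98 to 1.07) for complex III, of which Uqcrh is the member with the most UMIs. The Ndufaf assembly factors of complex I were at 142 CPM in WT and 202 CPM in KO in sum (1.42, 1.18 to 1.71). None of these genes alone reached the 50 CPM limit in CD8 T cells, so none counts as measured there. Without cycling cells the ratio of the list was 1.07 and 55 of 74 genes had a ratio above 1. Cycling cells made up 11.8% of WT CD8 T cells (20 of 169) and 30.4% of KO CD8 T cells (52 of 171), and 34.4% and 62.1% of their UMIs. Cells of 1 library are not replicates, so these shares are given by value.

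**Figure D4:**
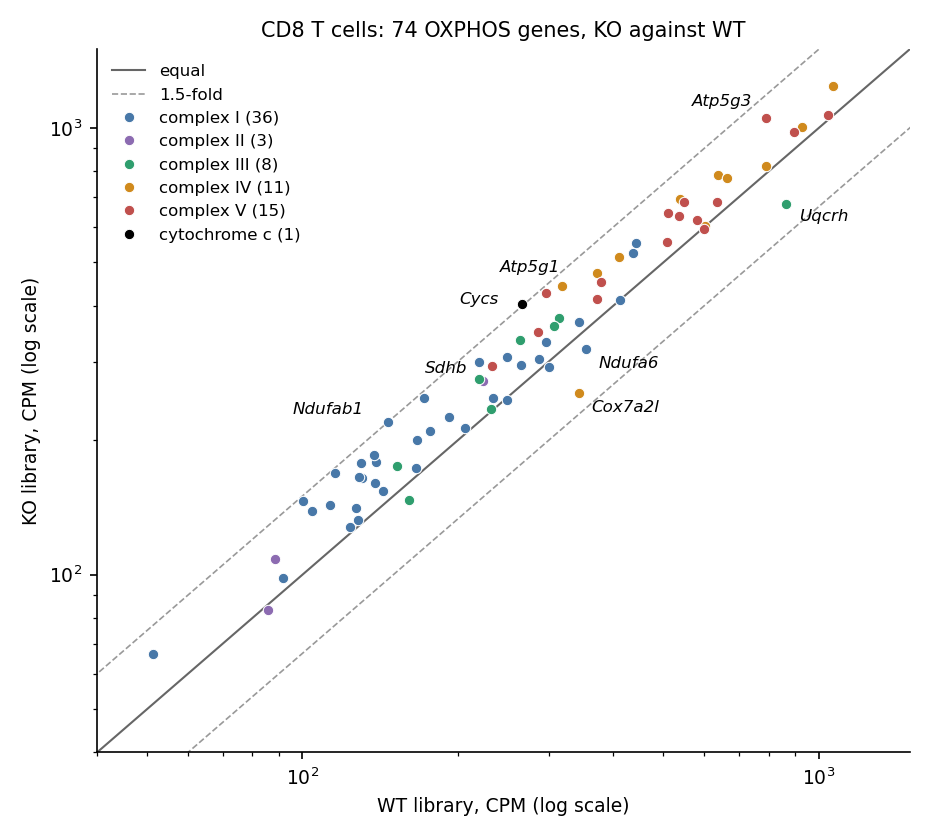
CPM of the 74 measured OXPHOS genes in all CD8 T cells, WT on the horizontal and KO on the vertical axis, both logarithmic, coloured by complex, 1 point per gene. 66 points lie above the line of equal levels; Cycs touches the 1.5-fold line, and Uqcrh and Cox7a2l lie below equality.

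Within the 3 CD8 states the KO over WT ratio took different sides of 1 on all UMIs. It was 0.949 (0.909 to 0.991) in naive-like cells, 1.102 (1.075 to 1.129) in other non-cycling cells and 1.016 (0.996 to 1.037) in cycling cells. With ribosomal protein and mitochondrially encoded UMIs out of the denominator, KO was the higher library in all 3 states. Naive-like cells were then at 3.32% in WT and 3.37% in KO. Other non-cycling cells were at 3.62% and 3.76%, and cycling cells at 4.64% and 4.74%. Of the measured genes, 29 of 73 had a ratio above 1 in naive-like cells, where 43.5% of all measured genes did. In other non-cycling cells it was 57 of 75, against 59.9%, and in cycling cells 47 of 76, against 51.4%. In these comparisons no member was called in naive-like or cycling cells, where 2.36% and 4.13% of measured genes were called higher and 5.97% and 4.95% lower. In other non-cycling cells 5 were called higher and none lower, where 8.97% of measured genes were higher and 3.65% lower. These 5, named after their values were seen, were Ndufab1 (89.9 and 163 CPM), Cycs (166 and 258 CPM), Ndufa11 (155 and 242 CPM), Ndufs4 (103 and 161 CPM) and Ndufs3 (89.9 and 137 CPM). Tcf7 itself was at 347 CPM in WT and 275 CPM in KO in naive-like cells, a ratio of 0.793 (0.558 to 1.118) with an interval that included 1. It was at 164 and 64.4 CPM in other non-cycling cells (0.392, 0.253 to 0.594). In cycling cells it was at 36.7 and 9.55 CPM (0.260, 0.108 to 0.606).

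With UMIs summed over all cells of a class, the ratios of the list were nearer 1 in the other T cell classes. Without cycling cells, T cells with neither co-receptor lay further from 1 than CD8 T cells did. CD4 T cells had a ratio of 1.053 (1.035 to 1.071), and 50 of 76 genes were above 1, where 46.9% of measured genes were. 1 gene was called higher and none lower. The background was 5.07% higher and 5.40% lower. With each cell weighted equally the CD4 ratio was 0.992 and 35 of 74 genes were above 1, and without cycling cells it was 0.998. Foxp3-positive CD4 T cells, a regulatory state, were at 2.40% in WT (48 cells) and 2.17% in KO (25 cells).

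T cells with neither co-receptor had a ratio of 1.020 (0.993 to 1.048), 43 of 74 genes above 1 where 43.2% of measured genes were, and the lowest median depth of the 5 classes, 3358 and 3425 UMIs, at which a co-receptor UMI can be missed. 2 genes were called higher and none lower, where 5.21% of measured genes were higher and 8.31% lower. Atp5g1 was at 199 CPM in WT and 355 CPM in KO (1.79, 1.38 to 2.35). Ndufc1, a small subunit of the complex I membrane arm, was at 79.4 and 136 CPM (1.72, 1.12 to 2.68). With each cell weighted equally the ratio of the list was 0.907, and without cycling cells 0.886, both on the other side of 1. Uqcrh, at 1000 CPM in WT and 726 CPM in KO, lay below 1 here as in CD8 T cells, without passing the fold limit.

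In cDC1s, which present tumor antigen to CD8 T cells, the list had a ratio of 1.072 (1.060 to 1.083) and 59 of 74 genes were above 1, where 56.6% of measured genes were. None was called, where 2.07% of measured genes were called higher and 2.23% lower. Non-cycling cDC1s gave 1.068 and cycling cDC1s 1.057. Cycs was at 827 CPM in WT and 984 CPM in KO, and Atp5j2, a small membrane subunit of the ATP synthase, at 520 and 636 CPM (1.22, 1.14 to 1.32). At the lower end Uqcrc2, a core protein of complex III, was at 166 and 138 CPM. In mature dendritic cells the ratio was 1.004 (0.978 to 1.029), 36 of 72 genes lay above 1 against 51.5%, and none was called, where 5.40% of measured genes were higher and 3.52% lower.

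The 2 dendritic cell classes differed from each other more than either did between WT and KO. cDC1s exceeded mature dendritic cells in the summed list 1.302-fold (1.28 to 1.33) in WT and 1.39-fold (1.36 to 1.42) in KO. Median UMIs per cell were 15695 and 16560 in cDC1s against 7731 and 8645 in mature dendritic cells. Cycling cells made up 16.1% and 21.2% of cDC1s against 0% and 1.69% of mature dendritic cells. The part of depth and cycling in the difference was not tested. Of 74 measured genes 28 were higher and 1 lower in WT, where 32.2% of measured genes were higher and 26.9% lower, and in KO 36 were higher and 1 lower, where the shares were 34.0% and 27.7%. In WT the members' count called higher was near the background share and in KO above it, and in both libraries the count called lower was below it. 26 were higher in both libraries. The difference was uneven across complexes: complex I stood at 7594 CPM in WT cDC1s and 5188 CPM in WT mature cells, and at 8110 and 5137 CPM in KO. Complex IV stood at 6495 and 5962 CPM in WT and at 7040 and 6040 CPM in KO. Of complex I 16 of 36 measured genes were higher in WT cDC1s and 22 of 36 in KO, and of complex IV 2 of 11 in each.

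**Figure D5:**
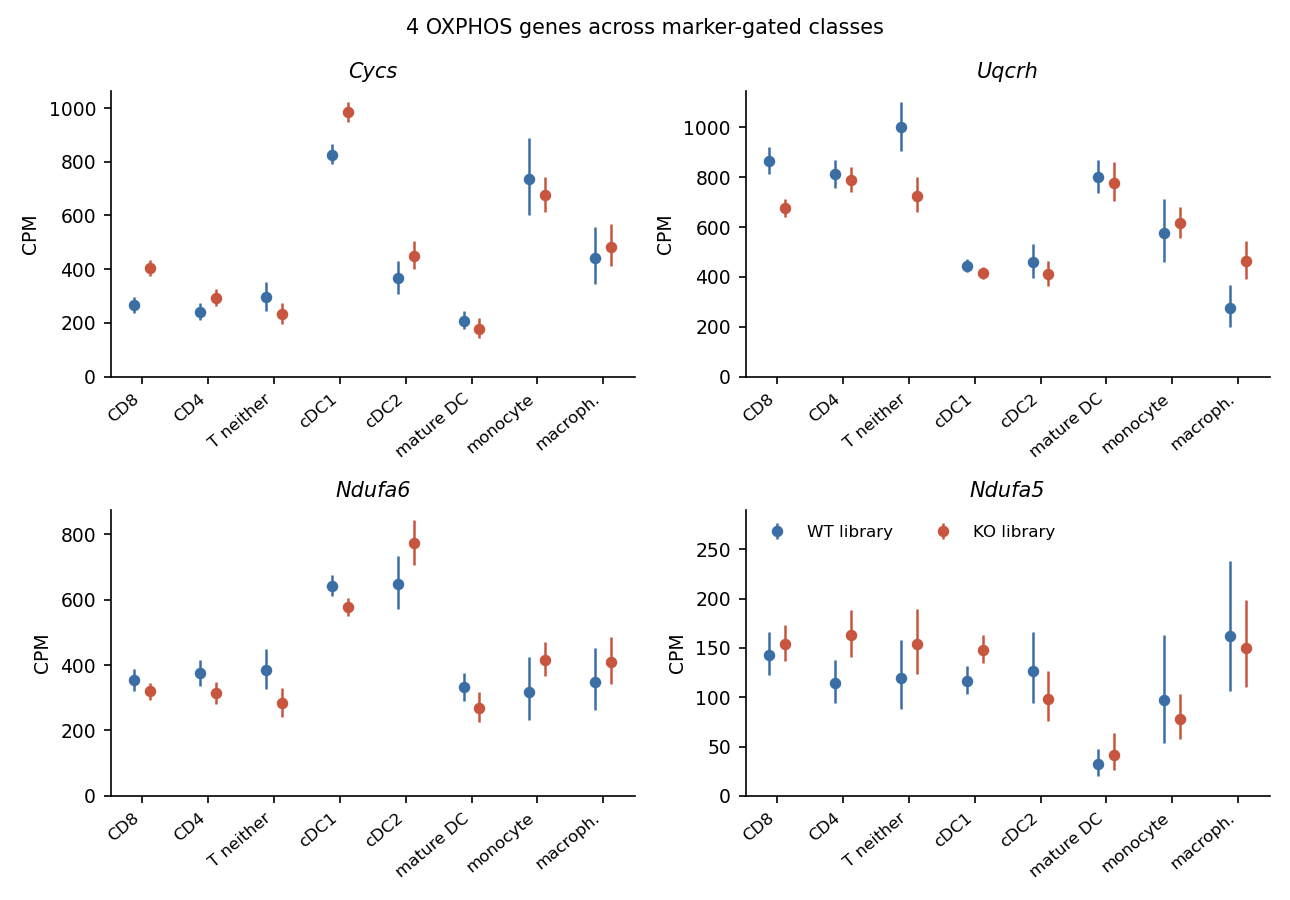
CPM of 4 OXPHOS genes by class, WT in blue and KO in red, with exact Poisson 95% intervals; T neither stands for T cells with neither co-receptor, and macroph. for macrophages. Cycs is at 827 and 984 CPM in cDC1s and at 209 and 179 CPM in mature dendritic cells, whereas Uqcrh is at 445 and 414 CPM in cDC1s and at 801 and 779 CPM in mature dendritic cells.

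Ndufa5 and Cycs had the widest range over the 5 larger classes among genes at 50 CPM or more. Cycs was at 827 CPM in WT cDC1s and 735 CPM in WT monocytes, against 209 CPM in mature dendritic cells and 242 CPM in CD4 T cells. The cDC1 over mature cell ratio was 3.96 (3.36 to 4.71) in WT and 5.504 (4.46 to 6.87) in KO. Ndufa5, a complex I subunit of the peripheral arm, was at 143 CPM in WT CD8 T cells, 117 CPM in cDC1s and 31.8 CPM in mature dendritic cells, and at 154, 148 and 41.7 CPM in KO. The next widest were Ndufa8, Sdhc and Ndufs8, which were also lowest in mature dendritic cells in both libraries. Of 76 genes at 50 CPM or more, 47 were lowest in mature dendritic cells in both libraries. The same count over all measured genes is not at hand, so this is not read as a trait of the list.

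Uqcrh was the 1 gene called lower in cDC1s than in mature dendritic cells, with ratios of 0.56 (0.50 to 0.62) in WT and 0.53 (0.47 to 0.60) in KO. Its T cell levels were high as well, at 865 CPM in WT CD8 T cells and 812 CPM in WT CD4 T cells. Ndufa6 had a different pattern, at 642 CPM in WT and 577 CPM in KO cDC1s and at 648 and 773 CPM in cDC2s, beside 332 and 268 CPM in mature dendritic cells. Uqcrh in cDC2s was at 459 and 412 CPM, near its cDC1 level of 445 and 414 CPM.

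Tissue-restricted isoforms had few UMIs in most classes. Cox6b2, the testis form of subunit VIb, had 69 UMIs in 54 WT cells and 61 UMIs in 53 KO cells, and took at most 1.82% of Cox6b1 and Cox6b2 UMIs in the 5 larger classes. In WT cDC2s it took 5.34% (2.95 to 8.80), from 14 UMIs of which 6 lay in 1 cell, and in KO cDC2s 1.72%. Cox6a2, the heart and muscle form of subunit VIa, was found in plasmacytoid dendritic cells, at 408.6 CPM in WT (27 UMIs, 6 cells) and 1219 CPM in KO (19 UMIs, 2 cells). There it made up 44.3% and 73.1% of Cox6a1 and Cox6a2 UMIs. Split by 1 plasmacytoid marker instead, cells with at least 2 Siglech UMIs had 191 CPM of Cox6a2 in WT (11 cells) and 483 CPM in KO (4 cells), and cells with no Siglech UMI 1.13 and 1.05 CPM. Cells with 1 Siglech UMI, 7 in WT and 4 in KO, had none. 1 WT cell held 18 of the 27 UMIs of the class, and without it the value was 148 CPM in the class and 70.9 CPM in cells with at least 2 Siglech UMIs. Without the KO cell with most UMIs the values were 990 and 297 CPM. In the 5 larger classes Cox6a2 took at most 0.45% of the pair, and in KO B cells 3 of 18 UMIs (16.7%, 3.58 to 41.4). Another 7 WT UMIs came from 1 cell without Siglech.

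Cox4i2, the hypoxia-linked lung form of subunit IV, and Ndufa4l2, a hypoxia-induced relative of Ndufa4, came almost wholly from 1 WT cell. It held 45 of 52 Cox4i2 and 37 of 41 Ndufa4l2 UMIs of the WT library, together with 134 UMIs of the pericyte marker Rgs5, 22 of Pdgfrb and 46 of Col1a2, and it was in no class because it had markers of 2 lineages. In KO the counts were 7 and 3 UMIs. The ubiquitous forms took their place in every large class, with Cox4i1 at 929 CPM in WT and 1002 CPM in KO CD8 T cells and Cox8a, the liver-type and ubiquitous subunit VIII, at 1065 and 1241 CPM.

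The 3 genes of subunit c are read as shares of their sum, which leaves out differences in depth. In mature dendritic cells Atp5g2 made up 59.8% (56.6 to 62.9) in WT and 53.7% (49.95 to 57.35) in KO. In cDC1s it made up 40.9% (39.5 to 42.4) and 37.0% (35.8 to 38.2), and Atp5g1 20.8% and 23.0%. Naive-like CD8 T cells were at 51.6% and 58.8% for Atp5g2, and cycling CD8 T cells at 40.7% and 37.5%. The Atp5g2 share did not follow the level of the list in every class: monocytes, with a list share of 2.32% and 2.35%, were at 30.5% and 36.1% for Atp5g2.

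Other genes of the pathway were read from lists outside the members. In cycling over naive-like CD8 T cells, all 7 genes of ATP and ADP exchange, outer membrane channels and the ATPase inhibitor were higher in both libraries, with summed ratios of 2.20 (1.95 to 2.49) in WT and 2.31 (2.03 to 2.64) in KO. Slc25a5, an ADP/ATP carrier, was at 285 and 642 CPM in WT and at 261 and 710 CPM in KO. Of 14 tricarboxylic acid cycle genes 10 were measured, of which 6 were higher in WT and 5 in KO and none lower, where 33.0% of all measured genes were higher in WT and 40.5% in KO. Of 32 assembly genes of complexes II to V, 10 were measured and 3 higher in WT, and 11 measured, 5 higher and 1 lower in KO, near those shares. Between KO and WT CD8 T cells as a whole none of the measured genes of these lists was called, and the summed ratios were 1.13, 1.18 and 1.16 in the order above. Of 14 regulators of mitochondrial gene expression 2 were measured (1.08, 0.94 to 1.24), and of 6 further complex I assembly genes none. Ucp2, an uncoupling protein family member of the inner membrane, was at 0.82 (0.74 to 0.89) of its WT level.

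The mitochondrially encoded genes did not keep step with the nuclear list. Naive-like CD8 T cells had 1.55 mitochondrially encoded UMIs per UMI of the list in WT and 1.83 in KO, and cycling CD8 T cells 0.649 and 0.617. cDC1s had 0.636 and 0.591. A filter on the mitochondrial share of each cell bounds these values.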

How the data were processed

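The authors deposited raw UMI counts per gene and cell barcode for each library, per the file headers a matrix written by software version 3.0.2. Cell Ranger 1.3 and mm10 are named in the submitters' processing notes. The chemistry, annotation release and barcode filter were not stated in those sources. Cells with at least 500 UMIs, 300 genes and at most 10% mitochondrial UMIs were kept. A cell's class was the marker list with the most distinct markers detected, at least 2 and more than any other list, after 20 markers shared between lists were left out; cells with more than 1 marker of another lineage, which include possible doublets, were left out, and no doublet caller was run. 123 WT and 140 KO cells lay within 1 marker of a different result. The gate's limits were set after the data were seen, and the members and lists were chosen with earlier results of these data known.

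Counts were summed per class and library and divided by all UMIs of the class (CPM), so deep cells weigh more. Ratios have exact conditional binomial intervals, shares exact Clopper-Pearson intervals and CPM exact Poisson intervals, all at 95%. They cover counting error only. Named genes were those called in a class, the 3 highest and 3 lowest by interval in CD8 T cells, CD4 T cells, cDC1s and macrophages, isoform families, complex II and Cycs, the 5 widest over classes and the highest of each complex; where a rule named a gene of a class under 50 cells it is given by value or left out. The calling step was checked on simulated data. Coordinates are from GENCODE M21 (GRCm38) and promoters from RefSeq. Python 3.11.15, numpy 2.4.6, scipy 1.17.1, pandas 2.3.3, scanpy 1.11.5 (clusters) and matplotlib 3.10.9 were used. Alternatives changed the weighting, denominator, gate, cells, limits and fold. The values of 1 gene called in CD4 T cells are not reported here.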

Additional observations from a re-analysis of the deposited data

Results flagged for a closer look

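2 readings fall outside the comparisons between classes of at least 50 cells. Cox6a2 was at 408.6 CPM in the 6 WT plasmacytoid dendritic cells and at 1219 CPM in the 2 KO ones, above the 1.13 and 1.05 CPM in cells without a Siglech UMI. Without the cell with most Cox6a2 UMIs the values were 148 and 990 CPM. Cells with melanoma markers, outside the immune classes that the sort aimed at, held 5.91% of their UMIs in the OXPHOS list in WT and 5.04% in KO.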

How the results depend on the processing

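Of 142 recomputed main values, 101 stayed within counting error or within 1.5 times the reported count, 38 moved and 3 were counted as reversed. Of 103 other recomputed values 80 stayed, 21 moved and 2 were counted as reversed. Not every ratio below that lies on the other side of 1 from its main value is among the values counted as reversed. The CD8 KO over WT ratio of the list was 1.12 with cells weighted equally, 1.10 without ribosomal protein and mitochondrially encoded UMIs, 1.07 without cycling cells and, in settings chosen after seeing the data, 0.949 in naive-like, 1.10 in other non-cycling and 1.02 in cycling cells alone. With cells weighted equally the ratio was 0.992 in CD4 T cells, 0.907 in T cells with neither co-receptor and 1.06 in cDC1s, and without cycling cells 0.998 and 0.886 in the first 2. Without ribosomal protein and mitochondrially encoded UMIs it was 1.08 in T cells with neither co-receptor, and cycling over naive-like CD8 T cells gave 1.40 in WT and 1.41 in KO. The cDC1 over mature dendritic cell ratio was 1.35 in WT and 1.44 in KO with cells weighted equally, 1.35 and 1.46 on the other denominator, 1.36 in KO by clusters and 1.27 in WT with 1 more marker. The macrophage ratio was 0.946 (0.913 to 0.981) in the main setting. It was 1.01 by clusters and 1.01 with phagocytes that carry melanoma markers kept, a setting chosen after seeing the data. Leaving out the top Cox6a2 cell, also chosen after seeing the data, gave 148 CPM in WT plasmacytoid dendritic cells. The causes were not tested.

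Counts of called genes were small. CD8 T cells had 2 with 1 more marker, with at least 2000 UMIs, with at most 5% mitochondrial UMIs and at 10 CPM, 3 without cycling cells and 4 without each library's top cell. CD4 T cells had 0 by clusters and at 200 CPM. T cells with neither co-receptor had 4 by clusters and on the other denominator and 1 at 200 CPM. cDC1s had 1 at 10 CPM, and mature dendritic cells 1 with 1 more marker. At a 25% difference the counts were 24 in CD8, 10 in CD4 and 8 in T cells with neither co-receptor, 1 in cDC1s and 1 in mature dendritic cells, and at 2-fold 0 in the 3 T cell classes. Among these settings a share over all measured genes is at hand only for CD8 T cells at 25% (20.2% higher and 11.2% lower). Without it the counts, and their differences between classes, are not a result about the list. No paired analysis was possible because each group is 1 library.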
